A study of Mus musculus with 2 samples.

Results

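The isoform pairs of cytochrome c oxidase comprise 10 genes for 5 of its nuclear-encoded subunits, taken by name out of 55536 annotated genes in the gene tables. The enzyme, also called respiratory complex IV, takes electrons from cytochrome c and passes them to oxygen in the inner mitochondrial membrane. Its catalytic core is encoded by the mitochondrial genome, and a ring of small subunits is encoded in the nucleus. Some of these nuclear subunits come as paralogous isoforms, and a complex holds one or the other. In the mouse the subunits Cox6a, Cox7a and Cox8 have an isoform of heart and skeletal muscle (Cox6a2, Cox7a1, Cox8b) beside a ubiquitous isoform (Cox6a1, Cox7a2, Cox8a). For Cox4 and Cox6b the second isoform belongs to other tissues: Cox4i2 is known from lung and from hypoxia, and Cox6b2 from testis, while Cox4i1 and Cox6b1 are ubiquitous. So 3 of the pairs set a muscle isoform against a ubiquitous one, and the other 2 set a lung or testis isoform against it. Of the 10 genes, 9 reached 1 TPM (read counts divided by transcript length and scaled to one total per library) in both animals and 8 averaged at least 100 reads. Of all 55536 genes, 11889 in 1 library and 11425 in the other reached 1 TPM, and 10872 averaged at least 100 reads.

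The libraries were total RNA of gastrocnemius, the mixed-fibre calf muscle, from 2 female B6CASTF1/J mice (first-generation hybrids of B6 and CAST) at 2 months of age. They form 1 group with no treatment, and are called animal 1 and animal 2 after their replicate numbers. The labels number the mice separately but give them the same donor record, so the spread between them may in part be technical. No conditions could be contrasted and no test was run: an exact two-sided sign test on 2 values cannot go below p = 0.5. Errors are the SD over the 2 animals. The libraries held 45014831 and 47771308 expected reads in genes.

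All 3 muscle isoforms lie on chromosome 7, and so do both members of the Cox6b pair, which makes 5 of the 10 genes (mm10, GENCODE M21). Cox6a2 (ENSMUSG00000030785.8) is at chr7:128205435-128206387 on the minus strand, Cox7a1 (ENSMUSG00000074218.3) at chr7:30184144-30186078 on the plus strand and Cox8b (ENSMUSG00000025488.9) at chr7:140898945-140900446 on the minus strand. Their ubiquitous partners lie on other chromosomes: Cox6a1 (ENSMUSG00000041697.8) at chr5:115345642-115348981, Cox7a2 (ENSMUSG00000032330.7) at chr9:79755361-79759878 and Cox8a (ENSMUSG00000035885.5) at chr19:7215153-7217616, all on the minus strand. Cox4i2 (ENSMUSG00000009876.13) is at chr2:152754173-152765037 and Cox4i1 (ENSMUSG00000031818.12) at chr8:120668222-120674207, both on the plus strand. Cox6b2 (ENSMUSG00000051811.14) is at chr7:4751792-4753094 and Cox6b1 (ENSMUSG00000036751.7) at chr7:30616861-30626151, both on the minus strand. Within each pair the coding transcripts with the suffix 201 had the same number of exons, with 2 exons in the Cox8 genes, 3 in the Cox6a genes, 4 in the Cox7a and Cox6b genes and 5 in the Cox4 genes.

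The genes are short, and their transcripts tell the paralogues apart. The coding sequences of these transcripts were identical within a pair at 53.6% of aligned bases for Cox8, 62.5% for Cox6b, 62.6% for Cox7a, 64.6% for Cox6a and 65.3% for Cox4. The longest exact run shared by any transcripts of a pair was 11 bases for Cox8, 12 for Cox6a and Cox7a, and 14 for Cox4 and Cox6b. The Cox8 pair, the least alike, is shown as coding sequence from start to stop codon (GENCODE M21, mm10, both genes on the minus strand), with bases that differ from the partner, or have none opposite, in capitals.
Cox8b: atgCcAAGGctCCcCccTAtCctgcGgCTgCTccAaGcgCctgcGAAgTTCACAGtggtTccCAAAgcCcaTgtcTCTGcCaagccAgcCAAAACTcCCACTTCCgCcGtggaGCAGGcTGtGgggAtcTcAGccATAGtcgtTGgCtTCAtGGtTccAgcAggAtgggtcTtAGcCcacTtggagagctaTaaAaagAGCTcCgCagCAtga
Cox8a: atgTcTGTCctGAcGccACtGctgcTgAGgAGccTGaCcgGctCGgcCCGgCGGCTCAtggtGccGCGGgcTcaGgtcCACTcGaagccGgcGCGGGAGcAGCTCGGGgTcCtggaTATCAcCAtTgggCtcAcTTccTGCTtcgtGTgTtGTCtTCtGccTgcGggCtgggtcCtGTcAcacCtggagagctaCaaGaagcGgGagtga
Capitals mark 102 of the 213 bases of Cox8b and 99 of the 210 of Cox8a. The deposited posterior SD of the gene count, which grows where reads could belong to several genes, was 0 reads for all 10 genes in animal 1 and for 9 of 10 in animal 2 (0.08 reads for Cox6a1). One other annotated gene shared an exact run of 60 bases or more with a member, the processed pseudogene AC148174.2 (106 bases of Cox6a1), and it had 0 reads in both libraries.

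Sequence around the annotated start sites differed within the Cox8 pair as well. RefSeq windows (GRCm38.p6) were matched for 7 of the 10 genes, each read here from 250 bases before to 30 after the annotated start. Cox6a2, Cox4i1 and Cox4i2 had no window, so the Cox6a and Cox4 pairs could not be compared. Both strands were searched for the MEF2 motif, named only, and for 6 short motifs. The muscle E-box, a form that myogenic factors bind, was searched as CAGCTG. The TATA box, a core promoter element, was searched as TATAAA. The core of ETS family sites, frequent in promoters of housekeeping and respiratory genes, was searched as CTTCCGG. The core of the site of NRF1, a regulator of respiratory chain genes, was searched as GCGCATGCG. The CCAAT box was searched by its own letters, and the site of SP1, a widely expressed factor, as GGGCGG. Matches of the E-box, TATA, ETS and NRF1 motifs are in capitals in the windows of Cox8b (chr7:140900417-140900696), Cox8a (chr19:7217587-7217866) and Cox6a1 (chr5:115348929-115349208), all minus strand, which are shown as a pair whose matches differ and as the only member window with an NRF1 core.
Cox8b: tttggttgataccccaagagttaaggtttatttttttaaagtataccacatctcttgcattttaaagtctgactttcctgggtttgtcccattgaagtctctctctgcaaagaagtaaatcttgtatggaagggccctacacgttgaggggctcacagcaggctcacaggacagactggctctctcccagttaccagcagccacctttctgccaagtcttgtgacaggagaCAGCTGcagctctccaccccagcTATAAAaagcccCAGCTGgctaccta
Cox8a: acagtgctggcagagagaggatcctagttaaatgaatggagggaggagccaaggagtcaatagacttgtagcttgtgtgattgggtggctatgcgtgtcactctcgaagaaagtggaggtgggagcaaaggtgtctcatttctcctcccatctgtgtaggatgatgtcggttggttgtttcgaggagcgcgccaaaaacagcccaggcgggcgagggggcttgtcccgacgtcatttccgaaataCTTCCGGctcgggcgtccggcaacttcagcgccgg
Cox6a1: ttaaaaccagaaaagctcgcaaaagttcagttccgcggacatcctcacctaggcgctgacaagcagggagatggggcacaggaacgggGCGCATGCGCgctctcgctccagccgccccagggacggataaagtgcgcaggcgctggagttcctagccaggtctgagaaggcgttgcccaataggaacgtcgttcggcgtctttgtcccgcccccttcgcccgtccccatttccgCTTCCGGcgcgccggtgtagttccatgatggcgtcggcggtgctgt
The Cox8b window held 2 CAGCTG matches, which 14.9% of all 32851 windows held at least once, and 1 TATAAA match, found in 13.1% of windows. Counted from the annotated start, the E-box matches began at -19 and 16 and the TATA match at 4, so that 2 of the 3 lay after it. The other 6 windows held neither motif. CTTCCGG was in the windows of 3 of the 4 ubiquitous genes with a window (Cox6a1, Cox8a and Cox6b1) and in 8.45% of all windows. The NRF1 core occurred in Cox6a1, overlapping itself on the opposite strand, and in 1.67% of windows. CCAAT was found in Cox6a1, Cox7a1, Cox8a, Cox6b2 and Cox6b1 (36.1% of windows), and GGGCGG in Cox6a1, Cox7a2 and Cox6b2 (34.7%). The MEF2 motif matched none of the 7, against 3.07% of windows. CG dinucleotides numbered 1 in Cox8b and 6 in Cox7a1, against 17 in Cox8a and 18 in Cox7a2, where the median window had 6 and the quartiles were 2 and 19. Cox6a1 had 29, Cox6b1 16 and Cox6b2 9. These are matches of letters and no evidence of binding.

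By TPM the muscle isoform was the more abundant in each of the 3 muscle pairs. The margin was wide for Cox6a and Cox8 and smaller for Cox7a. The Cox7a order turned round only with estimated counts of a second deposited table, which are not divided by length. In the other 2 pairs the ubiquitous isoform held nearly everything. Among the members, Cox8b, Cox6a2 and Cox6b1 had the highest levels and Cox4i2 and Cox6b2 the lowest.

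**Figure D1:**
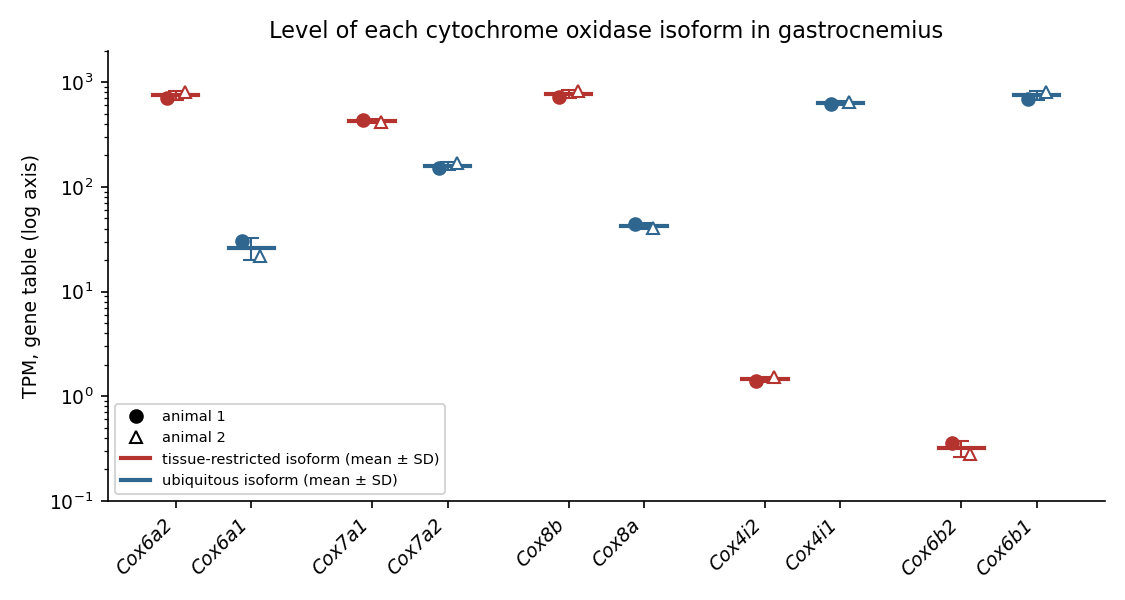
TPM of each isoform in animal 1 (circles) and animal 2 (triangles) on a log axis, with the mean (bar) and SD over the 2 animals; tissue-restricted isoforms are red and stand left of their ubiquitous partners in blue. The 3 muscle isoforms lie between 412.5 and 823 TPM, above their partners, while Cox4i2 and Cox6b2 lie below 2 TPM.

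Cox6a2, the muscle isoform of a subunit that takes part in regulating the enzyme, had 700.3 TPM in animal 1 against 807 TPM in animal 2 (15314 and 18781 reads). Its partner Cox6a1 had 30.6 and 21.8 TPM (544 and 414 reads). The muscle isoform was the higher in both animals and the levels of the pair did not overlap. The log2 ratio of Cox6a2 over Cox6a1, with 0.1 TPM added to each, was 4.86 ± 0.49 (SD, n = 2), or 29.0-fold, and Cox6a2 held 96.6 ± 1.10% of the pair's TPM.

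Cox8b, the muscle isoform of a membrane subunit with a single helix, had 724 TPM in animal 1 against 823 TPM in animal 2 (7114 and 8598 reads). Its partner Cox8a had 44.1 and 40.5 TPM (749 and 731 reads). Again the pair did not overlap. The log2 ratio of Cox8b over Cox8a was 4.19 ± 0.22 (SD, n = 2), or 18.2-fold, and Cox8b held 94.8 ± 0.746% of the pair.

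Cox7a1, the muscle isoform of a subunit at the surface where complex IV meets complex III, had 436 TPM in animal 1 against 412.5 TPM in animal 2 (4890 and 4912 reads). Its partner Cox7a2 had 150.2 and 168 TPM (2925 and 3450 reads). This was the muscle pair in which the ubiquitous isoform kept the largest share. The log2 ratio of Cox7a1 over Cox7a2 was 1.42 ± 0.17 (SD, n = 2), or 2.67-fold, and Cox7a1 held 72.7 ± 2.32% of the pair's TPM. By TPM of a second transcript table, deposited for each library and made from the reads and not from the alignment, Cox7a1 was only 1.37-fold its partner in animal 1 and 1.20-fold in animal 2. By that table's estimated counts, which are not divided by length, it held 46.3 ± 1.74% of the pair, below Cox7a2. The second table held 57.5% of the gene table's reads for Cox7a1 and 103% for Cox7a2. Among the ubiquitous partners of the muscle isoforms Cox7a2 was the highest, at a mean of 159 ± 12.4 TPM against 42.3 ± 2.58 TPM for Cox8a and 26.2 ± 6.19 TPM for Cox6a1.

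Cox4i2, the isoform of lung and of hypoxic cells, had 1.40 TPM in animal 1 against 1.51 TPM in animal 2 (33 and 38 reads, with exact Poisson 95% intervals of 22.7 to 46.3 and 26.9 to 52.2 reads). Cox4i1, the ubiquitous form of this early-assembling subunit, was at 615 and 649.8 TPM (14636 and 16549 reads). The log2 ratio of Cox4i2 over Cox4i1 was -8.67 ± 0.02 (SD, n = 2), and Cox4i2 held 0.229 ± 0.00342% of the pair's TPM. The counting interval of that ratio, -9.32 to -8.29 in animal 1 and -9.25 to -8.29 in animal 2, was wider than the spread between the animals.

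Cox6b2, the testis isoform, had 6 reads in animal 1 and 5 in animal 2 (0.36 and 0.28 TPM, with exact Poisson 95% intervals of 2.20 to 13.1 and 1.62 to 11.7 reads). Cox6b1, the ubiquitous form of a subunit on the intermembrane face of the enzyme, was at 699 and 801 TPM (9708 and 10605 reads). The log2 ratio of Cox6b2 over Cox6b1 was -10.81 ± 0.33 (SD, n = 2), and Cox6b2 held 0.0432 ± 0.0117% of the pair's TPM. At so few reads the ratio is loosely set, with counting intervals of -12.4 to -9.81 in animal 1 and -13.1 to -10.3 in animal 2.

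Ordered by level in the gene table, all 10 genes took the same place in both animals: Cox8b, Cox6a2, Cox6b1, Cox4i1, Cox7a1, Cox7a2, Cox8a, Cox6a1, Cox4i2 and Cox6b2. The first 3 could not be separated by their spread, with means of 773 ± 69.7, 754 ± 75.7 and 750.1 ± 72.1 TPM (SD, n = 2). From Cox4i1 (633 ± 24.4 TPM) and Cox7a1 (424 ± 16.6 TPM) downwards, the values of neighbours did not overlap between the animals. Among 22015 nuclear protein-coding genes, Cox8b, Cox6a2 and Cox6b1 ranked 46, 47 and 48 by mean TPM, Cox4i1 56 and Cox7a1 88. Cox7a2 ranked 313, Cox8a 1135 and Cox6a1 1850, and Cox4i2 and Cox6b2 ranked 9862 and 12269. In the second transcript table Cox8b also came first, followed by Cox4i1 and Cox6a2, and Cox7a1 and Cox6b1 changed places between the animals, so that 8 of the 10 genes kept 1 place.

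The isoforms were next set against the rest of the complex, one sum for each of 11 nuclear-encoded subunits. The sums of the 5 pairs in the gene table ran from 586 TPM (Cox7a) to 768 TPM (Cox8) in animal 1 and from 580.2 TPM (Cox7a) to 863 TPM (Cox8) in animal 2, a 1.31-fold and a 1.49-fold range. This closeness did not hold in the second transcript table, where they ran from 602 TPM (Cox6b) to 1226 TPM (Cox8) in animal 1 and from 629 TPM (Cox6b) to 1194 TPM (Cox8) in animal 2, a 2.04-fold and a 1.90-fold range. In the gene table the 6 other nuclear subunits were at means of 605 ± 15.8 TPM for Ndufa4, 563 ± 42.7 for Cox5a and 541 ± 17.5 for Cox5b. Cox6c was at 523 ± 25.2, Cox7b at 396 ± 16.0 and Cox7c at 332 ± 18.8 TPM. Over all 11 subunits the highest sum there was 2.41 times the lowest in animal 1 and 2.50 times in animal 2. Tissue-restricted isoforms made up 29.7% and 30.1% of the gene table's TPM of these subunits. The order of the subunits also depended on the table. In the second transcript table Cox6c was the highest of the 11 (1249 and 1323 TPM), above every pair. Cox7c stood there at 1216 and 1250 TPM, and the Cox6b pair was the lowest. The mitochondrially encoded subunits mt-Co1 (16759 and 17531 TPM), mt-Co2 (134 and 107 TPM) and mt-Co3 (1771 and 2977 TPM) were not set against these sums, since the posterior SD of their counts reached 4532 reads for mt-Co2 and 11667 reads for mt-Co3.

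**Figure D2:**
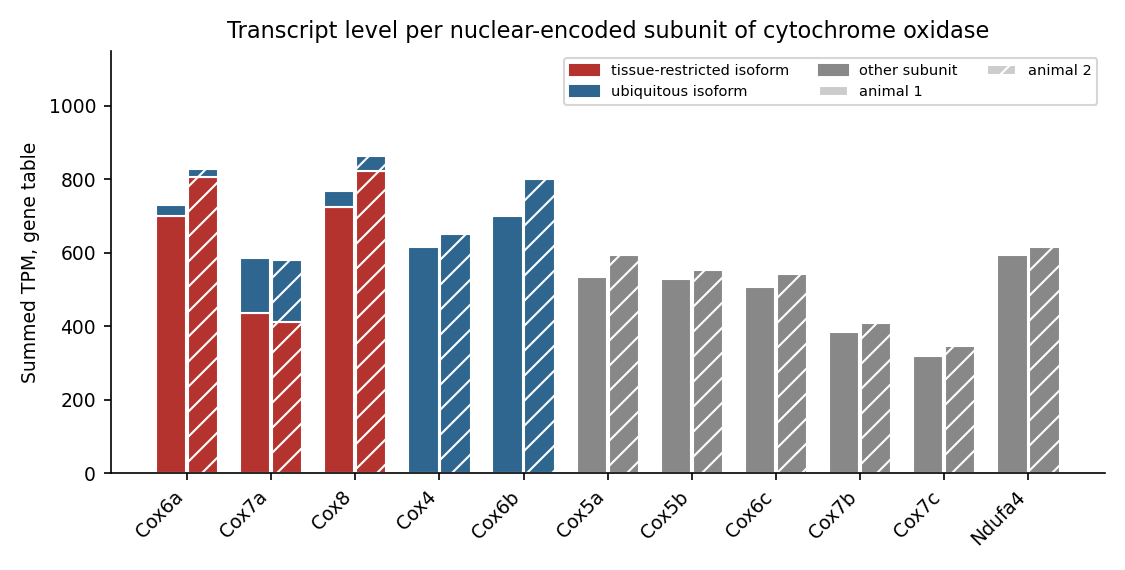
Summed TPM, from the gene table, of the isoforms of each nuclear-encoded subunit of cytochrome oxidase in animal 1 (plain bars) and animal 2 (hatched bars). The tissue-restricted isoform is red, its ubiquitous partner blue and subunits with no pair here grey. Red fills most of Cox6a and Cox8 and the larger part of Cox7a, and is too small to see in Cox4 and Cox6b.

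Of 5 further isoforms of the complex, Cox7a2l, a Cox7a relative that works in joining complexes III and IV, was at 61.3 and 61.7 TPM. Ndufa4l2, the hypoxia-linked relative of Ndufa4, was at 5.06 and 5.92 TPM. The testis isoforms Cox7b2 and Cox8c had 0 reads in both libraries, where 3 reads would equal 0.180 and 0.169 TPM for Cox7b2 and 0.222 and 0.209 TPM for Cox8c. AA467197 had 2 reads in each. Cyct, the testis cytochrome c, had 0 reads (3 reads would equal 0.143 and 0.135 TPM), while the somatic Cycs was at 41.7 and 48.0 TPM. All 24 genes on the list of assembly factors used here passed 1 TPM in each library, with a median of 17.0 TPM. They ran from the copper chaperone Cox17 (60.5 and 68.0 TPM) down to Pet117 (2.56 and 3.02 TPM).

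How much of a pair the muscle isoform held depended on how reads were turned into levels, least for Cox6a and most for Cox7a. The second transcript table divides by shorter effective lengths than the first, for instance 89.8 in place of 261 bases for Cox8b in animal 1. In it Cox6a2 held 94.7 ± 1.43% of its pair's TPM and Cox8b 93.5 ± 0.316% (SD, n = 2). Cox6a2 was 14.7-fold its partner in animal 1 and 22.1-fold in animal 2. Cox7a1 held 56.1 ± 2.32% of its pair's TPM there, and 60.7 ± 2.71% by expected counts of the gene table, with no division by length. Cox4i2 and Cox6b2 were below 1% of their pairs by all 4 measures.

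**Figure D3:**
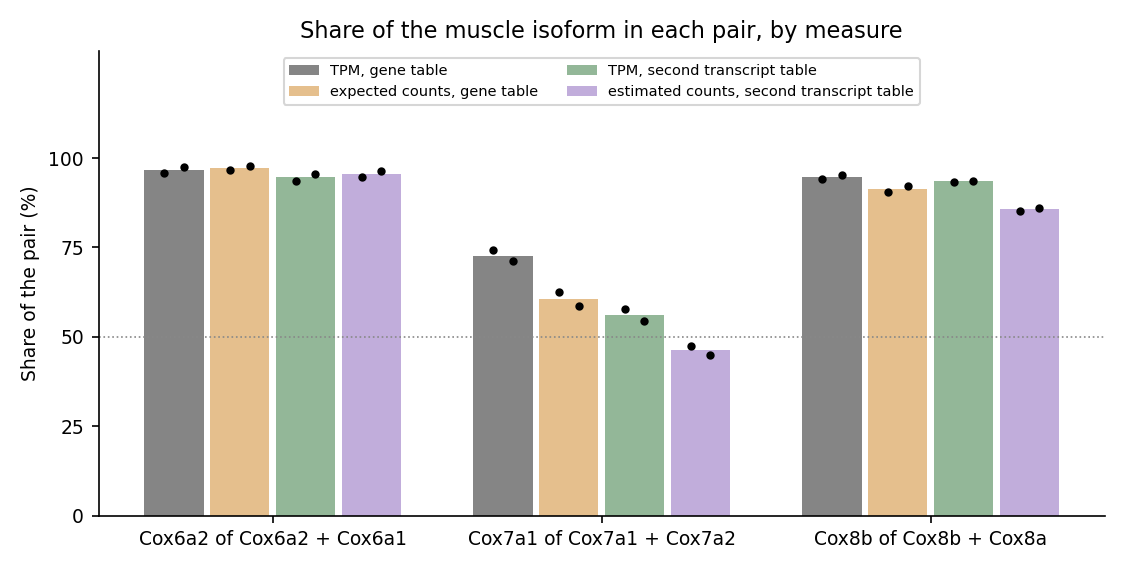
Share of the muscle isoform in its pair (percent) for the 3 muscle pairs, by TPM and expected counts of the gene table and by TPM and estimated counts of the second transcript table; bars are means and dots are animal 1 (left) and animal 2 (right), and the dotted line marks equal shares. Cox6a2 and Cox8b lie above 85% by every measure, whereas Cox7a1 runs from 72.7% down to 46.3%.

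Fewer reads were counted in the second table for most members. It held 41.6% of the gene table's reads for Cox8b (a transcript of 360 bases), 57.5% for Cox7a1, 57.4% for Cox6a2 and 54.4% for Cox6b1. For Cox8a it held 73.9%, for Cox4i1 83.5%, for Cox6a1 91.4% and for Cox7a2 103%. Among protein-coding genes averaging at least 100 reads, the median was 77.8% for 84 genes shorter than 500 bases and 94.2% for 362 genes of 500 to 800 bases. For 6719 genes of 2000 bases or more it was 110%, so short genes as a class were counted lower. Of the 8 members averaging at least 100 reads, muscle and ubiquitous alike, 7 lay below the median of their length class, and Cox7a2 lay above it.

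The tables also differed in which transcript of a gene they filled. The 10 genes have 33 annotated transcripts, and 8 genes have more than 1. In 6 of these 8 the second table named another leading transcript. Cox4i1-201 held 95.2 ± 0.764% of Cox4i1 in the first transcript table and none in animal 1 in the second, where Cox4i1-205 (765 bases, against 745) held 88.9 ± 1.86%. Cox7a1-201 (393 bases) held 95.97 ± 0.453% of Cox7a1 in the first, and Cox7a1-202 (485 bases) 69.0 ± 10.2% in the second. The coding Cox7a2-201 (659 bases) held 75.8 ± 1.53% of Cox7a2 in the first, and the non-coding Cox7a2-203 (477 bases) 64.6 ± 2.21% in the second. For Cox6a1 the first put 98.1 ± 1.42% on the coding transcript 201 and the second put 87.6 ± 6.42% on the retained-intron transcript 202. Cox4i2, with 27 and 33 reads in the second table, was given mostly to Cox4i2-202 in animal 1 (73.0%) and wholly to Cox4i2-201 in animal 2. Cox6a2 and Cox8b have a single annotated transcript each, so their levels do not depend on such a split.

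**Figure D4:**
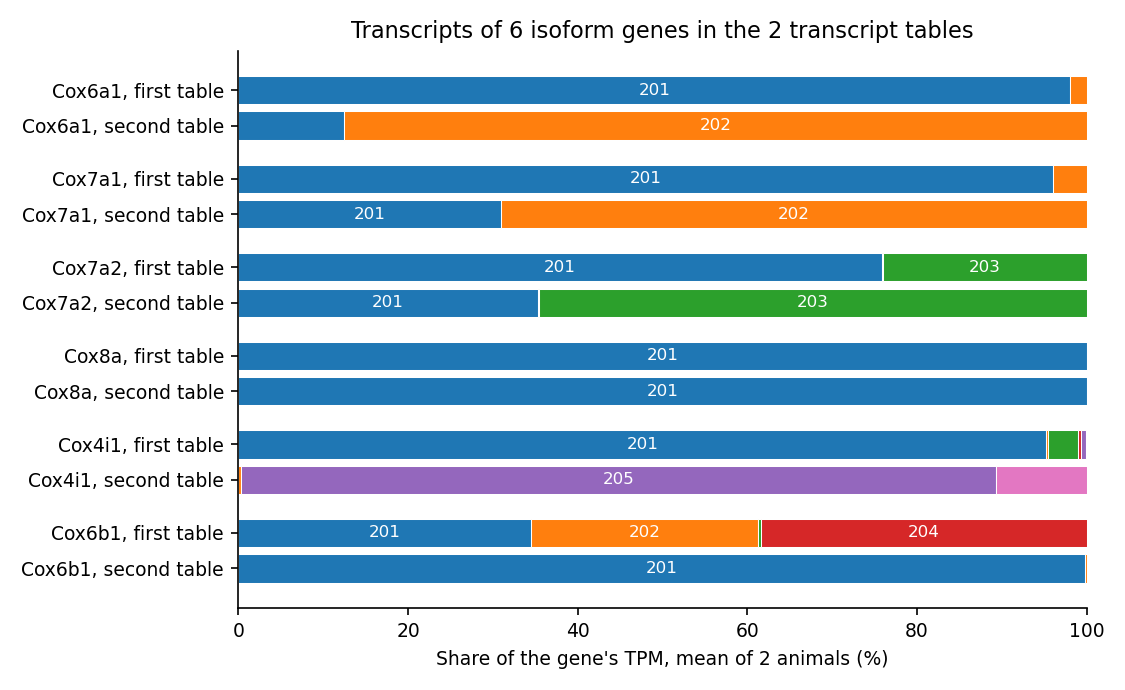
Share of each gene's TPM (percent, mean of the 2 animals) held by its annotated transcripts in the first and the second transcript table, for the 6 genes with more than 1 transcript that averaged at least 100 reads; numbers are transcript suffixes. The tables differ in the leading transcript of Cox6a1, Cox7a1, Cox7a2, Cox4i1 and Cox6b1 but not of Cox8a.

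For Cox6b1 this split moved the gene's own level. The first table divided it over Cox6b1-201 (618 bases, 34.5 ± 10.7%), the shorter coding Cox6b1-204 (354 bases, 38.4 ± 6.11%) and the retained-intron Cox6b1-202 (369 bases, 26.7 ± 5.09%), while the second gave Cox6b1-201 99.8 ± 0.0525%. If all reads are divided by the length of Cox6b1-201, the level is 497 and 510.4 TPM in place of 699 and 801 TPM. Cox6b1 then comes after Cox4i1 (602 and 639.8 TPM on the same scale). The same step moved Cox7a1 to 442 and 417 TPM and Cox7a2 to 139 and 154 TPM, and left Cox6a2, Cox8b and Cox8a as they were.

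Between the animals the 3 muscle pairs did not shift alike. Ratios between animals are of expected counts scaled with edgeR's TMM factors, animal 1 over animal 2, with exact binomial 95% intervals that cover counting error only. None of the 8 members averaging at least 100 reads differed 2-fold, where 3.03% of 10872 such genes did. Of the 8, 6 were lower in animal 1, against 52.9% of the 10872 genes. By library size or TPM 5 were lower and by spike-ins 7, settings for which the share over the 10872 genes was not computed. All 6 members averaging at least 1000 reads were lower, against 67.4% of such genes. With so few members, these counts cannot be read beyond that background. The members' median log2 ratio was -0.17 and that of the 10872 genes -0.01.

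In the Cox6a pair the isoforms differed in opposite directions. Cox6a2 was lower in animal 1, with a log2 ratio of -0.31 (interval -0.34 to -0.28), and Cox6a1 was higher, at 0.38 (0.19 to 0.57). These directions held under each of the 8 settings tried, with Cox6a1 at 0.17 and Cox6a2 at -0.52 under spike-in scaling, where the median gene stood at -0.22. Cox6a2 was thus 22.8-fold its partner in animal 1 and 36.8-fold in animal 2, and the counting intervals of these log2 ratios, 4.39 to 4.64 and 5.07 to 5.35, did not overlap. The Cox8 pair moved the same way with smaller steps. Cox8b was lower in animal 1 (-0.29, interval -0.33 to -0.24) and Cox8a showed no difference beyond counting error (0.02, -0.13 to 0.17, and -0.19 by spike-ins), for 16.4-fold in animal 1 and 20.3-fold in animal 2. With the second table's counts the ratio of Cox8b was only -0.08 (3200 and 3333 reads), outside that interval, and by its TPM the pair stood at 13.8-fold in animal 1 and 14.8-fold in animal 2.

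The Cox7a pair went the other way. Cox7a2 was lower in animal 1 (-0.25, interval -0.32 to -0.18) and Cox7a1 lay within counting error of no difference (-0.02, -0.08 to 0.04, and 0.08 by library size). Cox7a1 was 2.90-fold its partner in animal 1 and 2.46-fold in animal 2. Cox4i1 was also lower in animal 1 (-0.19, interval -0.22 to -0.16), as was Cox6b1 (-0.14, -0.18 to -0.10). For Cox4i2 (-0.22, interval -0.94 to 0.49) and Cox6b2 (0.23, -1.73 to 2.30) no difference was detectable at this depth. All 6 other nuclear subunits were lower in animal 1 as well, at a median of -0.19, against 67.4% of genes averaging at least 1000 reads. Of the 24 listed assembly factors, 22 were lower, at a median of -0.23, against 52.9% of genes averaging at least 100 reads. By TPM some of these factors were higher in animal 1, with sums over the list of 527 and 554 TPM.

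**Figure D5:**
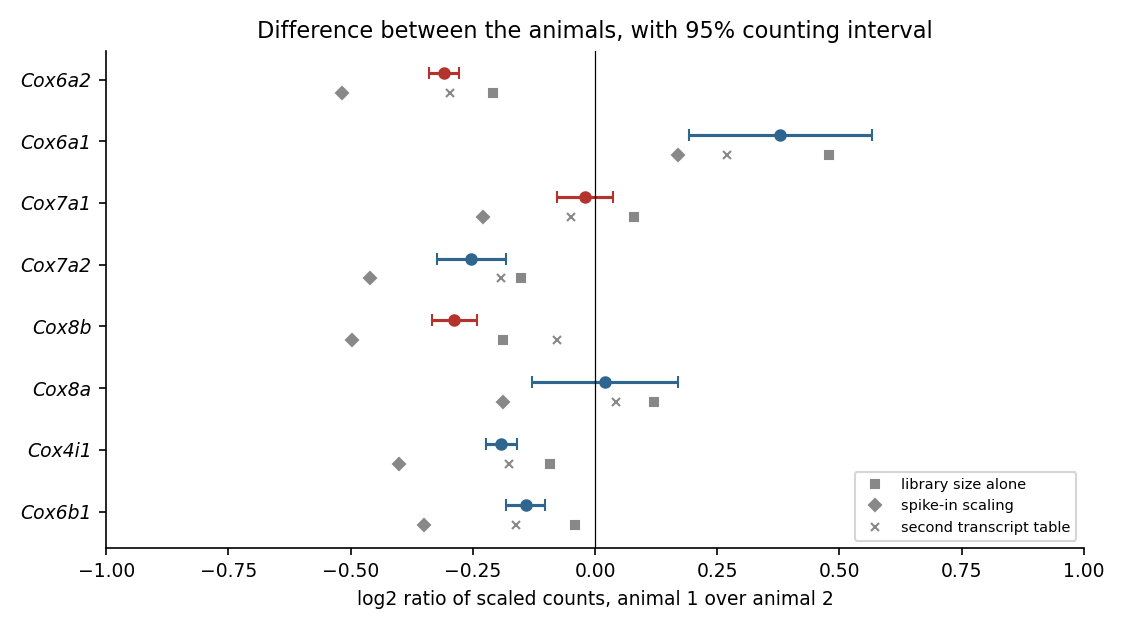
Log2 ratio of scaled counts, animal 1 over animal 2, for the 8 members averaging at least 100 reads; coloured points with bars are the TMM-scaled value and its 95% counting interval (red for muscle isoforms, blue for ubiquitous ones) and grey symbols are other scalings. Cox6a1 lies right of 0 under every scaling shown, while Cox7a1 and Cox8a change sign with the scaling. The muscle isoforms Cox6a2 and Cox8b and the ubiquitous Cox7a2, Cox4i1 and Cox6b1 all lie left of 0.

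The tissue itself was not the same in the animals. Slow fibre transcripts were lower in animal 1: all 7 markers were at least 2-fold lower, their summed level was 559 TPM against 3060 TPM in animal 2, and the highest and lowest of them were Myl3 (131 and 642 TPM) and Tnni1 (36.6 and 216 TPM). The 7 fast fibre markers summed to 49150 and 46500 TPM, with none 2-fold apart. Adipocyte (7 of 7 markers, 772 and 99.6 TPM), Schwann cell (5 of 5, 244 and 32.9 TPM) and smooth muscle markers (4 of 4, 135 and 44.4 TPM) were each at least 2-fold higher in animal 1. In bulk tissue, more cells of a type and more RNA per cell cannot be told apart. Immune markers summed to 35.8 and 22.4 TPM, endothelial ones to 61.4 and 48.9 TPM and fibroblast ones to 483 and 419 TPM, with 1 of 4 fibroblast markers and none of the others 2-fold apart. The part of these cell types in the ratios of the Cox pairs was not tested.

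Some marker lists were chosen for single members. Cox8b and Cox7a1 are also expressed in brown adipocytes, and there the defining marker Ucp1 had 0 reads in animal 1 and 1 in animal 2, with none of 6 brown adipocyte markers at 1 TPM in both animals (summed level 3.61 and 1.83 TPM, with 2 markers 2-fold higher and 1 lower in animal 1). The muscle isoforms are also those of heart, and of 7 cardiac markers none reached 1 TPM in both animals, with Nppb and Myl7 at 0 reads (summed level 2.56 and 2.13 TPM). Cox4i2 is known from pericytes of the mouse brain. All 8 pericyte markers were detected, from Rgs5 (68.5 and 63.7 TPM) down to Higd1b (1.71 and 1.92 TPM), with summed levels of 139 and 131 TPM. Rgs5 and Abcc9 (44.1 and 44.2 TPM) made up most of these sums, and the median marker was at 5.615 TPM. The source of the Cox4i2 reads was not tested. Cox6b2 is a testis gene, but both mice were female, so spermatogenic markers cannot tell where its reads came from. Of 8 such markers, 7 had 0 reads in both animals, with a single read of Odf1.

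Overlapping genes could have added reads to 2 members, since the counting strand is not given in the sources used here. An exon of the integrin gene Itgad on the opposite strand overlaps Cox6a2, and it had 0 reads in both libraries. Emc8 overlaps the start of Cox4i1 on the opposite strand and was at 11.6 and 9.18 TPM.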

How the data were processed

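Total RNA of gastrocnemius from 2 mice was sequenced with ERCC spike-ins, from 300 ng of RNA per library, per the labels. The authors deposited a gene table and a first transcript table with expected counts, TPM and percent of the gene's TPM (a layout that RSEM writes), made from a transcriptome alignment, and a second transcript table with estimated counts and TPM (a layout that kallisto writes), made from reads. The build mm10 and annotation GENCODE M21 come from the deposited file lists. No tool, version or strand setting is given in the sources used here. The deposited bounds and posterior SD of each count were read as a score and a signal. The first tables take 99 bases off each length. Rows with no gene name (4 and 5 reads) and spike-ins stayed out of library sizes. Reads of a B6 and CAST cross were counted on mm10, so reads with CAST alleles may be lost.

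Members were found by symbol. Pairs were compared as log2 ratios of TPM with 0.1 added. A ratio was taken as larger than the animals' spread when both animals gave 1 sign and the mean was over 2 SD, as in all 5 pairs. The share of other gene pairs that pass this rule was not computed. Between animals, expected counts were rounded and scaled with TMM over genes averaging at least 10 reads, with a prior count of 0.5. On simulated counts of 55536 genes for this comparison, 99% of genes changed by a log2 of 2 passed 2-fold, and 1.996% of unchanged genes did. The dispersion of these counts was assumed and not estimated from the libraries, so the percentages hold for that setting only. Coding sequences were aligned globally. No gene of most like pattern is named, since 2 libraries give no measure of likeness. The members, 5 pathway lists, 12 marker lists and rules (all members in full; of a list, its highest and lowest gene) were chosen with earlier results of these data known. Some lists are given by counts and sums only. R 4.3.3, edgeR 4.0.16, DESeq2 1.42.0 (for an alternative scaling), biopython 1.88, Python 3.11.15, matplotlib 3.10.9, pandas 2.3.3, numpy 2.4.6 and scipy 1.17.1 were used.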

Additional observations from a re-analysis of the deposited data

How the results depend on the processing

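All 5 pair ratios kept their sign under every alternative tried, except that of Cox7a with estimated counts of the second table. Those counts are not divided by length. With TPM of the second transcript table the mean log2 ratio was 4.17 for Cox6a2 over Cox6a1, 0.36 for Cox7a1 over Cox7a2, 3.84 for Cox8b over Cox8a, -8.64 for Cox4i2 over Cox4i1 and -10.09 for Cox6b2 over Cox6b1. With expected counts in place of TPM it was 0.63 for Cox7a, 3.40 for Cox8 and -8.76 for Cox4. A pseudocount of 1 TPM gave -8.01 for Cox4 and -9.15 for Cox6b, one of 0.01 TPM gave -8.75 and -11.16, and posterior mean TPM gave -8.60 and -9.40. These last values are set by the few reads of Cox4i2 and Cox6b2. With each animal left out in turn the ratio ran from 4.51 to 5.20 for Cox6a, 1.30 to 1.54 for Cox7a, 4.03 to 4.34 for Cox8, -8.68 to -8.66 for Cox4 and -11.04 to -10.57 for Cox6b. Alternatives chosen after seeing the data were estimated counts of the second table, with -0.22 for Cox7a (reversed in sign), 2.58 for Cox8, -8.74 for Cox4 and -10.44 for Cox6b, and 1 transcript length per gene, with -8.64 for Cox4 and -10.26 for Cox6b. The cause of the Cox7a reversal was not tested; fewer reads of Cox7a1 and not of Cox7a2 were counted in that table. Between animals, 0 of 8 members were 2-fold apart under all 8 scalings, and 5 to 7 were lower in animal 1. The median gene stood at a log2 ratio of -0.22 by spike-ins and 0.09 by library size, and Cox7a1 and Cox8a changed sign with the scaling. Cox8b stood at -0.08 with the second table's counts, against -0.29. No paired analysis was possible because there is 1 group. The libraries number 2, so the SDs are themselves imprecise, and Cox6b2 rests on 6 and 5 reads.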
